A study of Mus musculus with 16 samples.

Results

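The genes described here are the 8 that encode the proximal signaling proteins of antigen receptors, Lat, Zap70, Lck, Lcp2, Syk, Fyn, Plcg1 and Prkcq. They were taken by symbol from a table of 53465 genes measured by bulk RNA-seq in 16 MC38 tumors, and all 8 were found and passed the filter on low counts. MC38 is a mouse colorectal carcinoma line derived from C57BL/6 mice, and the tumors were grown under the skin of the flank of female C57BL/6 mice aged 6 to 8 weeks. The groups were 8 tumors given IgG control antibody, 6 aPD-1 non-responder tumors and 2 aPD-1 responder tumors. Every mouse received 200 µg of antibody on days 16 and 20, and tumors were taken on day 21, so the groups share the cell line, the host, the dosing days and the harvest. aPD-1 is an antibody that blocks PD-1, an inhibitory receptor of T cells. The study assigned response after treatment, from staining of the tumors for CD8 T cells, so the level of T cell genes is related to how the responder group was made and is no independent evidence about response. The RNA came from whole sections 100 µm thick of the frozen part of each tumor and holds every cell type in them.

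When a T cell receptor binds antigen, the Src family kinase Lck phosphorylates the ITAM motifs of the CD3 and zeta chains, the kinase Zap70 docks there, and Zap70 phosphorylates the adaptors LAT and SLP-76, the latter encoded by Lcp2. These adaptors assemble phospholipase C gamma 1 (Plcg1), which makes the second messengers that raise calcium and switch on protein kinase C theta (Prkcq) and Ras. Fyn is a second Src family kinase of T cells that is also made in many other tissues, and Syk does in B cells, macrophages and mast cells what Zap70 does in T cells.

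Total counts per tumor lay between 26603449 and 39948866, and mitochondrial genes held 2.52% to 7.60% of them, with more than 5% in IgG control tumor 1 and in non-responder tumors 9 and 14. The summed level of 6 T cell markers (Cd3d, Cd3e, Cd3g, Cd2, Cd5 and Cd6) was 4.50 to 14.5 CPM (counts scaled to a common library total) in IgG controls, 7.49 to 21.3 CPM in non-responders and 123 to 140 CPM in responders. That of 8 B cell markers was 1.94 to 8.39, 2.86 to 7.23 and 347 to 1280 CPM, and that of 6 genes of lymph node stroma was 0.191 to 2.85, 0.259 to 4.53 and 146 to 538 CPM. The 7 macrophage markers summed to 935 to 1341, 1090 to 1569 and 1422 to 1551 CPM. Markers of plasma cells (5 genes) summed to 44.2 to 84.3, 49.4 to 87.9 and 400 to 509 CPM. Outside the responders most of that sum was Sdc1, with means of 73.5 CPM in IgG controls, 70.4 in non-responders and 62.6 in responders. Jchain had means of 0.942, 1.26 and 326 CPM. Markers of NK cells (4 genes), which also use Lck, Zap70 and Lat, summed to 4.10 to 8.45, 4.71 to 8.87 and 12.3 to 20.5 CPM. Those of endothelial cells (4 genes) summed to 51.0 to 155, 37.8 to 145 and 176 to 315 CPM. Over non-responders, 4 of 5 plasma cell, 3 of 4 NK cell and 2 of 4 endothelial markers were called higher, where 12.5% of all genes tested were. Mast cell markers (7 genes) summed to 6.54 to 53.6, 12.9 to 48.6 and 38.6 to 106 CPM, and 1 of 7 was called higher. No gene of these lists was at 0 in all tumors. Epcam, Krt8 and Krt18, markers of the epithelial type named by the tumor label, summed to only 0.112 to 3.86 CPM in IgG controls and 0.0911 to 2.85 CPM in non-responders, against 29.8 to 75.9 CPM in responders. In these bulk samples, fewer cells of a type and less RNA per cell cannot be told apart, and how far each cell type contributed to the levels below was not tested.

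The kinases that start T cell receptor signaling, Lck and Zap70, were low in IgG controls and non-responders and high in both responders. Lck (GRCm38 chr4:129548344-129573641, minus strand) ranged from 1.91 to 4.16 CPM in IgG controls, with a median of 2.86 CPM, and from 2.64 to 6.25 CPM in non-responders, with a median of 3.76 CPM. The responders had 57.2 and 49.2 CPM, above all other tumors. The log2 fold change of Lck was 3.72 ± 0.28 (SE) over non-responders, or 13.2-fold, with an adjusted p of 1.1e-07 in edgeR, and 4.21 ± 0.25 over IgG controls (adjusted p = 5.9e-09). Zap70 (chr1:36761798-36782818, plus strand) ranged from 0.630 to 1.60 CPM in IgG controls, with a median of 1.21 CPM, and from 0.948 to 2.26 CPM in non-responders, with a median of 1.75 CPM. The 2 responders, at 12.1 and 11.9 CPM, again lay above all other tumors. Zap70 rose by a log2 fold change of 2.79 ± 0.34 over non-responders (6.90-fold, adjusted p = 1.4e-05) and of 3.41 ± 0.31 over IgG controls (adjusted p = 4.4e-07). Zap70 rested on 21 to 88 counts per tumor outside the responders, so its low levels are the less precise.

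Their broader relatives started from higher levels, and Fyn changed less than Lck. The log2 fold change of Syk was also below that of Zap70. Over non-responders their intervals of 1.96 SE on either side overlapped (1.68 to 2.62 and 2.13 to 3.45), and over IgG controls they did not (1.80 to 2.67 and 2.80 to 4.02). These intervals do not use that both genes come from the same tumors. Compared within tumors, Zap70 minus Syk did not pass over IgG controls after adjustment (exact permutation p adjusted to 0.0918). Fyn (chr10:39368855-39565381, plus strand) ranged from 31.1 to 44.0 CPM in IgG controls (median 40.9 CPM) and from 32.3 to 46.5 CPM in non-responders (median 38.3 CPM). The responders had 63.1 and 62.1 CPM and did not overlap with the other groups. The log2 fold change of Fyn was 0.67 ± 0.14 over non-responders (1.59-fold, adjusted p = 0.0029) and 0.67 ± 0.14 over IgG controls (adjusted p = 0.0015), which passed the test but not the fold threshold. Without responder tumor 15 these were 0.58 (adjusted p = 0.0923) and 0.59 (adjusted p = 0.0662), and Fyn no longer passed. Syk (chr13:52583173-52648792, plus strand) ranged from 17.4 to 40.9 CPM in IgG controls (median 26.5 CPM) and from 22.8 to 32.1 CPM in non-responders (median 29.7 CPM). The responders had 168 and 83.6 CPM, both above every other tumor. Syk rose by a log2 fold change of 2.15 ± 0.24 over non-responders (4.44-fold, adjusted p = 6.2e-06) and of 2.23 ± 0.22 over IgG controls (adjusted p = 1.3e-06).

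Syk was the only one of the 8 genes for which the 2 responders differed by more than 1.2-fold. Tumor 15 had 2.01 times the Syk level of tumor 16, while the ratio for the other 7 genes was between 1.02 and 1.16. The B cell markers differed in the same direction, with Ms4a1 at 195 and 57.6 CPM in tumors 15 and 16, whereas Cd3e was at 14.1 and 14.3 CPM. The 7 mast cell markers also differed in that direction, with a sum of 106 CPM in tumor 15 and 38.6 CPM in tumor 16. Without tumor 15 the log2 fold change of Syk over non-responders was 1.49 (adjusted p = 0.0024), and without tumor 16 it was 2.51 (adjusted p = 3.9e-06). Over IgG controls the value without tumor 15 was 1.57. With 1 tumor on each side this difference between responders has no replicate check, and the part of B cells or mast cells in it was not tested.

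The adaptors, which carry no enzyme activity and serve as docking platforms, differed from each other. Lat (chr7:126363824-126369570, minus strand), the membrane scaffold, had 0.675 to 2.24 CPM in IgG controls (median 1.04 CPM) and 1.02 to 2.11 CPM in non-responders (median 1.66 CPM). The responders had 30.9 and 27.3 CPM, from 1046 and 970 counts, and lay far above both groups. Lat rose by a log2 fold change of 4.18 ± 0.34 over non-responders (18.1-fold, adjusted p = 3.0e-07) and of 4.58 ± 0.32 over IgG controls (23.8-fold, adjusted p = 2.3e-08). Lcp2 (chr11:34046920-34092295, plus strand), the cytosolic adaptor, was an abundant gene in all groups, at 15.4 to 29.7 CPM in IgG controls (median 23.5 CPM) and 22.4 to 31.2 CPM in non-responders (median 26.1 CPM). The responders had 54.6 and 52.3 CPM and did not overlap with either group. Its log2 fold change was 1.01 ± 0.18 over non-responders (adjusted p = 5.5e-04) and 1.17 ± 0.17 over IgG controls (adjusted p = 5.9e-05). The former lay just above the fold threshold, ranged from 0.91 to 1.06 when single tumors were left out, and fell under 1 without non-responder 10 (0.93), non-responder 14 (0.97), responder 15 (0.91) or responder 16 (0.99). It was 0.89 without the 3 tumors of high mitochondrial share, an alternative chosen after seeing the data.

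The effectors were at the extremes of the 8 genes by mean CPM outside the responders. Prkcq (chr2:11172108-11301222, plus strand) had 0.478 to 3.01 CPM in IgG controls (median 0.779 CPM) and 0.542 to 1.62 CPM in non-responders (median 1.32 CPM). The responders, at 21.4 and 20.8 CPM, lay above all other tumors. Prkcq rose by a log2 fold change of 4.14 ± 0.50 over non-responders (17.7-fold, adjusted p = 1.5e-05) and of 4.35 ± 0.46 over IgG controls (adjusted p = 2.3e-06). Plcg1 (chr2:160731300-160775760, plus strand) was the most abundant of the 8 genes by CPM outside the responders, at 73.3 to 110 CPM in IgG controls (median 85.7 CPM) and 71.6 to 105 CPM in non-responders (median 86.0 CPM). The responders had 93.6 and 83.6 CPM and sat inside both ranges. Its log2 fold change was -0.01 ± 0.17 over non-responders (adjusted p = 0.983), with an interval of 1.96 SE on either side from -0.34 to 0.32, and -0.00 ± 0.16 over IgG controls (adjusted p = 0.996, interval -0.32 to 0.32). Exons of Plcg1 overlap those of Zhx3 on the other strand, which held 12907 counts over all tumors against 47935 for Plcg1, so a share of reads could be assigned to either gene if strand was not used in counting.

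**Figure D1:**
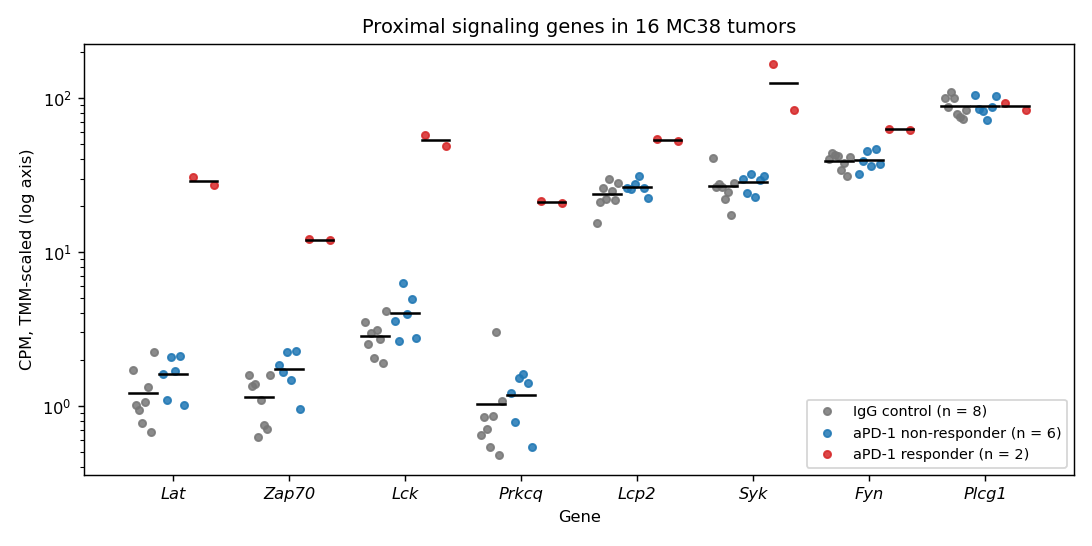
TMM-scaled CPM on a log axis of the 8 genes in each of the 16 tumors, with a point per tumor and a bar at the group mean. The 2 responders lie above all other tumors for every gene except Plcg1, and the points of the IgG controls and the non-responders overlap for all 8.

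Over non-responders, 6 of the 8 genes were called higher (Lat, Prkcq, Lck, Zap70, Syk and Lcp2), at an adjusted p under 0.05 and a log2 fold change above 1. Among all 18251 genes tested 12.5% were called higher. Fyn made 7 of 8 that passed the adjusted p alone, where 15.4% of all genes passed higher, and in 7 of 8 both responders exceeded every non-responder, as for 21.5% of all genes. Over IgG controls the same 6 genes were called, against 14.3% of all genes, and 7 passed, against 17.7%. Both responders exceeded every IgG control in 7 of 8, against 19.3% of genes. The median log2 fold change of the 8 genes was 2.47 over non-responders and 2.82 over IgG controls, and that of all genes tested was 0.02 and -0.02. The comparisons share the same 2 responder tumors, so the second is not an independent repeat of the first.

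**Figure D2:**
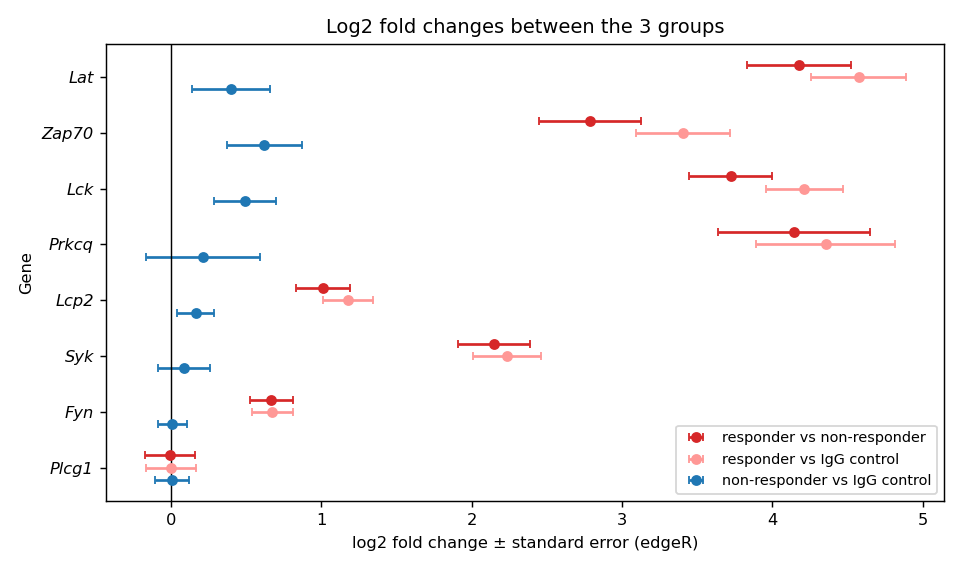
Log2 fold changes of the 8 genes with their standard errors from edgeR, for responders over non-responders, responders over IgG controls and non-responders over IgG controls. Both responder comparisons run from near 0 for Plcg1 to 4.18 and 4.58 for Lat, and all values of non-responders over IgG controls are at most 0.62.

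Between the treated tumors that did not respond and the IgG controls, 0 of the 8 genes passed the adjusted p in edgeR, as did 0% of all genes, and the groups overlapped for each gene. The largest log2 fold changes were those of Zap70, 0.62 ± 0.25 (adjusted p = 0.987), and Lck, 0.49 ± 0.21 (adjusted p = 0.987). These 2 of 8 genes were under an unadjusted p of 0.05, where 2.56% of all genes were so and higher in non-responders. Lat had 0.40 ± 0.26, Prkcq 0.21 ± 0.38 and Lcp2 0.16 ± 0.12. The values for Syk, Fyn and Plcg1 were 0.08 ± 0.17, 0.01 ± 0.10 and 0.01 ± 0.11. Of the 6 T cell markers 0 passed, and their median log2 fold change was 0.64. Without non-responder 11, or without non-responder 13, neither gene was under an unadjusted p of 0.05, and without IgG control 4, or IgG control 7, Zap70 was and Lck was not. Without IgG control 6 Prkcq was under it as well, and without IgG control 8 Lat was. DESeq2 placed the same 2 genes under an unadjusted p of 0.05 and passed 0 of 8 after adjustment.

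The promoter sequences shown are those of Lat, Zap70 and Lck, which rose in responders, and of Plcg1, which did not, and were chosen with the changes above known. Prkcq (log2 fold change 4.14 over non-responders), Syk (2.15), Lcp2 (1.01) and Fyn (0.67) also rose, and their sequences are not shown. The sequences are thus given as a description, and whether promoter sequence has a part in these changes was not tested. RefSeq held promoter entries for 8 of 8 genes (GRCm38.p6), with 12 start sites, and the 250 bases before each start were searched on both strands for GGAA, the core of sites bound by ETS family factors. Such a core occurs in 93.4% of 32851 promoters of the same length, with a median of 3, so a match is a description of the letters and not of binding. For Lat, for the first starts of Zap70 and Lck, and for Plcg1 these bases are shown 5′ to 3′ on the gene's strand, with GGAA and its reverse complement TTCC in capitals. They lie at chr7:126369569-126369818 (minus strand), chr1:36761548-36761797 (plus strand), chr4:129573642-129573891 (minus strand) and chr2:160731060-160731309 (plus strand).
Lat: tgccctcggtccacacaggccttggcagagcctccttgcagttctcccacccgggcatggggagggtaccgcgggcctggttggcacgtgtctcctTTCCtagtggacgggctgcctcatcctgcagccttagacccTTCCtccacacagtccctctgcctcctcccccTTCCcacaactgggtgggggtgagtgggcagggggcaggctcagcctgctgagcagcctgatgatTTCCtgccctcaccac
Zap70: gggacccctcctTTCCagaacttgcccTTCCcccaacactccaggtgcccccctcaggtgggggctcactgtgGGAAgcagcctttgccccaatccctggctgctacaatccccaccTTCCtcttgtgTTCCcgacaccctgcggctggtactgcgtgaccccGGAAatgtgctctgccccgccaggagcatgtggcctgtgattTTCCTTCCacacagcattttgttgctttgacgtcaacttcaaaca
Lck: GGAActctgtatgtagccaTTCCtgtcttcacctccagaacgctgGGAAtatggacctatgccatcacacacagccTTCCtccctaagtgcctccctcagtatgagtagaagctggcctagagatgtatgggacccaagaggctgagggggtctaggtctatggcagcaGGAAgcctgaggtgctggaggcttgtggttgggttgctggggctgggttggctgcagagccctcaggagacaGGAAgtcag
Plcg1: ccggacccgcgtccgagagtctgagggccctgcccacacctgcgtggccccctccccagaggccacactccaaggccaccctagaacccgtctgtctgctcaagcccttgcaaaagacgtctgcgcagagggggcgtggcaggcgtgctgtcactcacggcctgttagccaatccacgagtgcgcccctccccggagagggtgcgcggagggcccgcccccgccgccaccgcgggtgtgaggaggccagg

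These windows held 4 cores for Lat, 8 for Zap70, 6 for Lck and 0 for Plcg1. The bases after the Plcg1 start, and after the second start of Zap70, were not found in GENCODE transcripts of these genes, unlike those after the other starts. The count for Plcg1 thus rests on a start that did not pass this check. The window of Lcp2 held 4, that of Prkcq 2 and that of Fyn 0, and the start sites of Syk had 0 and 1. The other starts of Zap70 had 7 and 0, and the other start of Lck had 3. The longer core AGGAAG, which contains GGAA, occurs in 29.5% of all promoters and was found 1 time for Lat, Zap70 and Lcp2 and 3 times for Lck at these first starts, 1 time for Prkcq, and not at the first starts of Syk, Fyn and Plcg1. TGTGGT, the core of RUNX sites, occurs in 14% of promoters and was found 1 time at the first start of Lck and 1 time at the second start of Zap70. CG dinucleotides separated the first starts in another way, with 0 for Lcp2, 1 for Lck and 6 each for Lat and Zap70. Fyn and Plcg1 had 21, Syk 27 and Prkcq 30. The other starts had 2 for Syk, 2 and 7 for Zap70 and 3 for Lck, so Syk had both a CG-rich and a CG-poor start. The median over all promoters was 6. Prkcq thus had a CG-rich window like those of Fyn, Plcg1 and the first start of Syk, and a change in responders near that of Lat.

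Per kilobase of exon the order of the genes was nearly the same in IgG controls and non-responders and differed in responders. In IgG controls the mean levels were 11.3 CPM per kb for Plcg1, 8.99 for Fyn, 5.31 for Lcp2, 2.85 for Syk, 0.979 for Lck, 0.440 for Lat, 0.379 for Zap70 and 0.144 for Prkcq. Neighbours whose ranges over tumors did not overlap were Fyn and Lcp2, and Syk and Lck. In non-responders the order was the same except that Zap70 (0.581 CPM per kb) and Lat (0.579) changed places within overlapping ranges. In responders Lck came first at 18.2 CPM per kb, above Fyn at 14.3 without overlap. Syk (13.4), Lcp2 (12), Plcg1 (11.3) and Lat (10.5) followed. From Fyn down to Lat each range overlapped with the next, but Fyn (14.2 to 14.5) did not overlap with Lcp2 (11.7 to 12.3). The range of Syk, 8.92 to 17.9, also overlapped with that of Lck, 16.8 to 19.5. Zap70 (4.02) and Prkcq (2.98) were last and overlapped with no neighbour.

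To ask which genes changed more or less than the Cd3 chains of the T cell receptor complex, each gene was set against the mean log2 CPM of Cd3d, Cd3e and Cd3g in the same tumor. In these log2 ratios Lat was higher in responders than in non-responders by 0.80 and Prkcq by 0.79, and Lck by 0.38. Zap70 differed by -0.58, with -0.86 and -0.82 in the responders against -0.76 to 0.19 in non-responders. Syk, Lcp2, Fyn and Plcg1 differed by -1.31, -2.37, -2.71 and -3.38, with both responders below every non-responder for each. Response was assigned from CD8 T cell staining, and the Cd3 chains themselves rose by log2 fold changes of 3.01 (Cd3g) to 3.54 (Cd3e) over non-responders. The zeta chain Cd247, which was not in this reference, rose by 3.66, and Cd2, Cd5 and Cd6 by 3.77, 3.61 and 3.60. Lck, at 3.72, rose by about as much as these, so its higher ratio depends on the genes chosen as reference. Lat and Prkcq rose by 4.18 and 4.14. A gene that rose less than the Cd3 chains, such as Syk (log2 fold change 2.15), Lcp2 (1.01) or Fyn (0.67), or that did not change, such as Plcg1 (-0.01), therefore falls in this ratio. The exact p of such a gene restates the grouping. In two-sided exact permutation tests the p was 0.0357, the smallest that 2 against 6 tumors allow, for Lat, Lck, Lcp2, Syk, Fyn and Plcg1, and 0.0714 for Zap70 and Prkcq. Over IgG controls Lat was higher by 0.55 (exact p = 0.0444), Lck by 0.16 (exact p = 0.578) and Prkcq by 0.47 (exact p = 0.489), and Zap70 differed by -0.64 (exact p = 0.0667). After adjustment over the 24 tests 0 passed 0.05, the lowest adjusted p being 0.0857. Between non-responders and IgG controls the 8 ratios differed by -0.06 for Zap70 (0.10 with Cd2, Cd5 and Cd6 as the denominator) to -0.67 for Fyn (exact p = 0.0400, adjusted p = 0.0872).

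**Figure D3:**
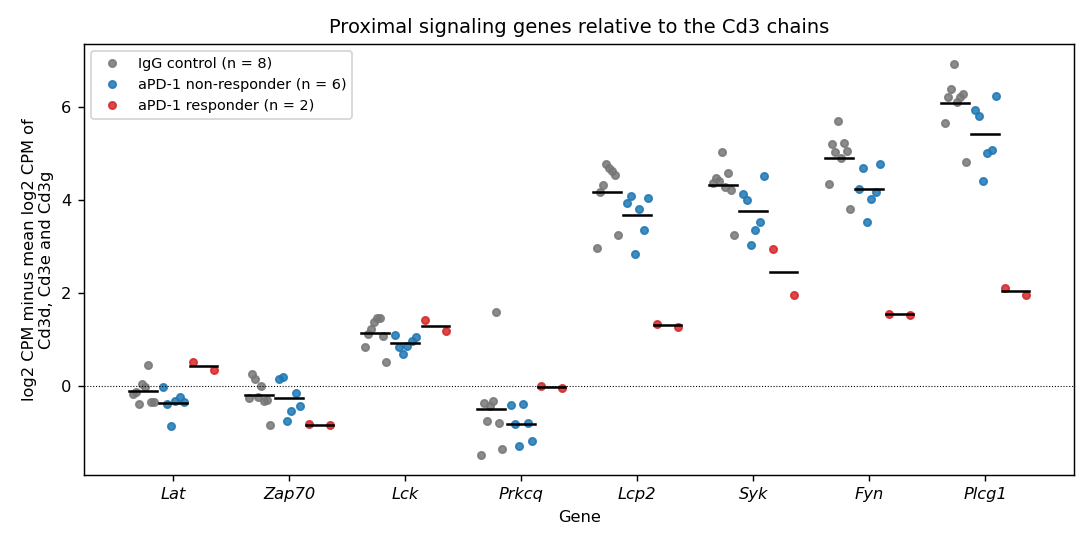
Log2 CPM of each gene minus the mean log2 CPM of Cd3d, Cd3e and Cd3g in the same tumor, with a point per tumor and a bar at the group mean. The 2 responders sit at the top of the treated tumors for Lat, Lck and Prkcq and below all other tumors for Syk, Lcp2, Fyn and Plcg1.

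Related genes were then compared within tumors. Lck minus Fyn, the pair of Src family kinases of T cells, was -0.34 and -0.14 log2 units in responders and -3.86 to -2.84 in non-responders, a difference of 3.09 (exact p = 0.0357), and of 3.54 from IgG controls (exact p = 0.0222, the smallest that 2 against 8 allow). Zap70 minus Syk was -3.78 and -2.81 in responders and -4.96 to -3.67 in non-responders, a difference of 0.73 (exact p = 0.143) with overlapping groups. Against IgG controls, which ranged from -5.27 to -4.10, it was higher by 1.23 (exact p = 0.0222). Zap70 made up 4.07% of the summed CPM of Zap70 and Syk in IgG controls, 5.78% in non-responders and 8.73% in responders, so Syk remained the more abundant transcript of its family in every group by CPM. Plcg1 minus Plcg2, the latter the phospholipase of B cells and myeloid cells, differed in responders by -0.39 from non-responders (exact p = 0.0714) and by -0.27 from IgG controls (exact p = 0.0667). Of 9 such tests 0 passed after adjustment (lowest adjusted p = 0.0918). Without non-responder 14, Zap70 minus Syk in non-responders over IgG controls was 0.69 instead of 0.50 and passed (exact p adjusted to 0.0280).

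The 14 tumors outside the responder group vary in T cell marker level, which allows the genes to be set against it without the 2 tumors that stand apart. Lck followed the T cell marker score (mean log2 CPM of the 6 markers) most closely, with Pearson r = 0.93 (permutation p = 2.0e-05, adjusted p = 4.8e-04) and Spearman rho = 0.85 (permutation p = 2.1e-04, adjusted p = 0.0050). Lat had r = 0.82 (permutation p = 1.7e-04, adjusted p = 0.0020) and rho = 0.77 (permutation p = 0.0024, adjusted p = 0.0164). Zap70 had r = 0.81 (permutation p = 3.4e-04, adjusted p = 0.0027) and rho = 0.82 (permutation p = 5.4e-04, adjusted p = 0.0065). Without the 2 tumors farthest from the median score these r were 0.88, 0.78 and 0.83. Adjustment covered 24 relations, of 8 genes with T cell, B cell and macrophage scores, and the other 21 did not pass by r. Lcp2 had r = 0.55 (adjusted permutation p = 0.169) but rho = 0.75 (adjusted permutation p = 0.0164), and Prkcq r = 0.51 (adjusted permutation p = 0.198). Syk (r = 0.27), Fyn (r = 0.31) and Plcg1 (r = -0.25) did not pass.

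Within the groups the same 3 relations had r of 0.86 for Lck, 0.77 for Lat and 0.77 for Zap70 in the 8 IgG controls, and 0.95, 0.86 and 0.72 in the 6 non-responders. Without the 2 tumors farthest from the median score in each group, Lck kept r of 0.74 and 0.90. Lat had 0.32 in IgG controls without tumors 4 and 8 and 0.87 in non-responders, and Zap70 had 0.76 in IgG controls and 0.15 in non-responders without tumors 11 and 14, so the relation of Lat in IgG controls and that of Zap70 in non-responders rest on those tumors. None passed after adjustment within a group, with the lowest adjusted exact p of 0.0863 in IgG controls and 0.133 in non-responders. With the macrophage score over the 14 tumors, Lcp2 had r = 0.66 (permutation p = 0.0150, adjusted p = 0.0899) and rho = 0.49, Plcg1 had r = -0.60 (permutation p = 0.0206, adjusted p = 0.0988) and rho = -0.63, and Syk had r = -0.55 (permutation p = 0.0494, adjusted p = 0.169) and rho = -0.23. Without tumors 1 and 9, the 2 farthest from the median of that score, these r were 0.43 for Lcp2, -0.49 for Plcg1 and -0.09 for Syk, so the relation of Syk rests on those tumors. Without IgG control tumor 1 alone, Lcp2 had r = 0.29 and Plcg1 r = -0.59. Leaving out tumors 9 and 14 as well gave r = -0.27 for Plcg1. Within non-responders Plcg1 had r = -0.81, and -0.14 without tumors 9 and 14. Within IgG controls it had r = -0.43, and -0.38 without tumors 1 and 7. Tumors 1, 9 and 14 had the lowest macrophage scores and the highest mitochondrial shares, so much of the relation of Plcg1 rests on them.

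**Figure D4:**
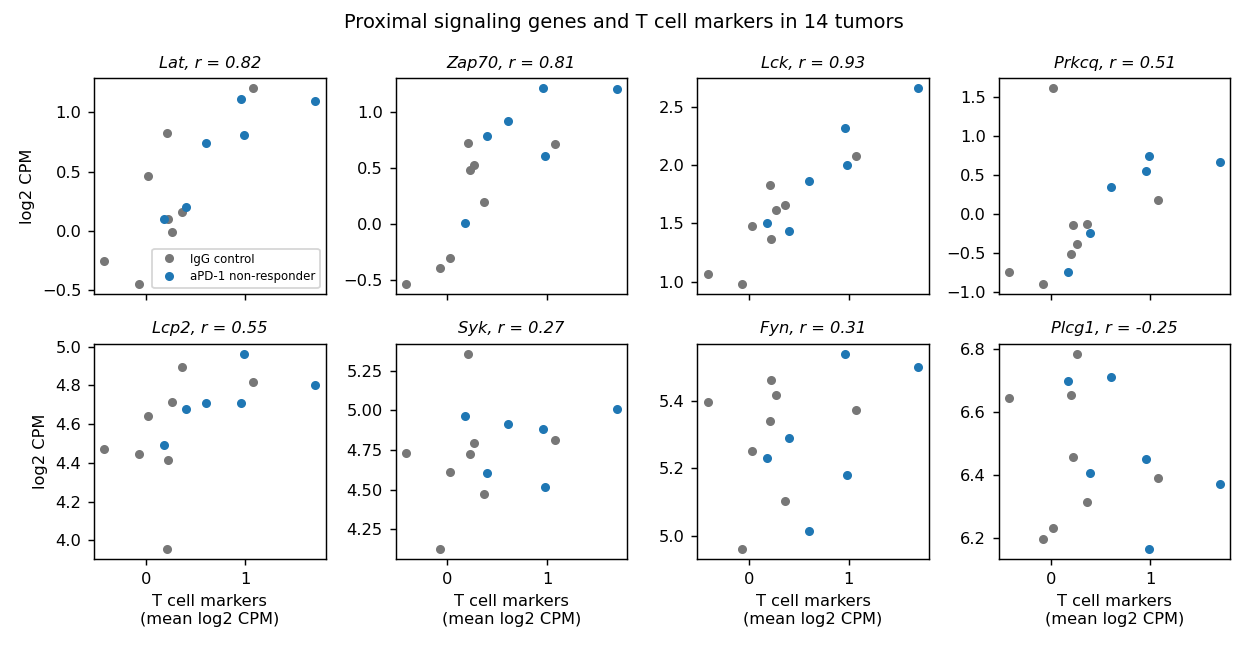
Log2 CPM of each of the 8 genes against the mean log2 CPM of 6 T cell markers in the 14 tumors that are not responders, with IgG controls and non-responders in separate colours and Pearson r over each panel. The points rise together for Lck (r = 0.93), Lat (0.82) and Zap70 (0.81) and scatter for Syk, Fyn and Plcg1.

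Prkcq showed the widest relative spread among IgG controls, with tumor 6 at 3.01 CPM, while the other 7 had at most 1.08 CPM. Protein kinase C theta is also made in skeletal muscle. In tumor 6 the muscle genes Acta1, Ckm, Myh4 and Tnnt3 summed to 1543 CPM, against 0.950 to 13.3 CPM in the other IgG controls, 1.52 to 51.1 CPM in non-responders and 1.21 and 9.17 CPM in responders. The part of muscle in the Prkcq level of this tumor was not tested. Without it, the log2 fold change of Prkcq was 4.83 for responders over IgG controls and 0.68 for non-responders over IgG controls.

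The genes whose levels ordered the 14 tumors most like each of the 8 were drawn from 13608 genes of at least 1 CPM, by Spearman rho and as a description only, since tumors share depth and composition. For Lck these were Cd3e (0.96), Tgm2 (0.92) and Klrk1 (0.92), and for Zap70 Itgb7 (0.91), Trbc2 (0.89) and Galnt6 (0.89). Lat was nearest to Tgm2 (0.94), Tnfrsf4 (0.91) and Abcc3 (0.90), and Lcp2 to genes that included Cd6 and Cyp4f18 (each 0.89). Prkcq was nearest to Gm13889 (0.89), Sash3 (0.85) and Crispld2 (0.85). For Syk they were Keap1, Daxx and Rnf31 (each 0.95), for Fyn Impa2 (0.98), Fbln1 (0.95) and Gprc5b (0.94), and for Plcg1 Khnyn (0.98), Rubcn (0.96) and Rere (0.96). Cd3e, Trbc2 and Cd6, which encode parts of the T cell receptor or a T cell surface receptor, occurred for Lck, Zap70 and Lcp2.

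The partners of the 8 genes were taken as lists by role. Of the receptor chains and coreceptors, 8 of 8 rose in responders over non-responders, with a median log2 fold change of 3.54, from Cd3g (3.01 ± 0.42, adjusted p = 6.5e-05) and Cd8a (3.13 ± 0.46, adjusted p = 1.1e-04) to Cd247 (3.66 ± 0.43, adjusted p = 9.6e-06) and Cd4 (4.35 ± 0.36, adjusted p = 3.1e-07). Of 13 partners that bind the kinases and adaptors 10 rose, with a median of 2.29. Themis, a T cell adaptor, rose by 4.26 ± 0.46 (adjusted p = 4.7e-06), and Trat1, which stabilises the receptor at the surface, had 0.739 and 0.928 CPM in responders against a mean of 0.0200 CPM in non-responders. The exchange factor Sos1 (0.20 ± 0.13, adjusted p = 0.32), the adaptor Fyb (0.42 ± 0.19, adjusted p = 0.13) and Nck1 did not pass. Of 12 downstream transducers 8 rose, with a median of 0.93. Carmil2, which links CD28 to signaling, rose by 4.34 ± 0.41 (adjusted p = 1.1e-06), whereas the adaptor Bcl10 (0.15 ± 0.12, adjusted p = 0.43) and Nfkb1 (0.25 ± 0.12, adjusted p = 0.18) did not pass, nor did Nfatc3 and Orai1.

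Among 16 negative regulators 9 rose, with a median of 1.28. The adaptor Lax1 rose by 4.83 ± 0.58 (adjusted p = 1.3e-05) and the ubiquitin-binding regulator Ubash3a by 4.06 ± 0.62 (adjusted p = 1.6e-04), while its relative Ubash3b (0.10 ± 0.14, adjusted p = 0.70) and the adaptor Dok1 (0.02 ± 0.20, adjusted p = 0.96) did not pass. Of 11 partners in B cell receptor signaling 9 rose, with a median of 2.43, led by the receptor chain Cd79a (8.18 ± 0.68, adjusted p = 3.4e-07) and the kinase Blk (7.37 ± 0.69, adjusted p = 9.7e-07). The B cell and myeloid kinase Lyn rose by 0.51 ± 0.17 (adjusted p = 0.040), and Plcg2 (0.41 ± 0.17, adjusted p = 0.11) and Pik3ap1 did not pass. Of the relatives of the 8 genes in the Src and protein kinase C families, Fgr (0.54), Prkcd (0.43), Prkce (0.68) and Prkch (1.63) rose, Src fell by 0.58 on the log2 scale (adjusted p = 0.0040), and Yes1 did not pass. The myeloid ITAM signaling genes Fcer1g (-0.35), Tyrobp (-0.03), Clec7a (1.02) and Trem2 (-0.24), which signal through Syk, did not pass in 4 of 4. Clec7a had 23.4 and 169 CPM in responders 15 and 16, on either side of the non-responder mean of 47.5 CPM, and was called higher over IgG controls (1.63 ± 0.51, adjusted p = 0.029). Among all genes 15.4% passed higher and 4.34% passed lower. In non-responders over IgG controls 0 genes of these lists passed.

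**Figure D5:**
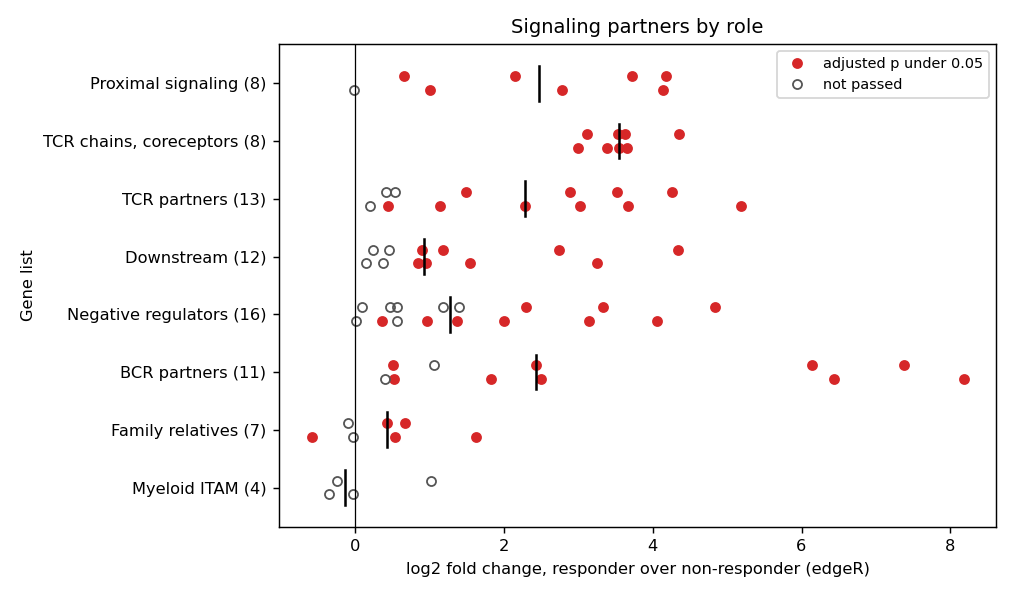
Log2 fold changes of responders over non-responders from edgeR for the 8 proximal signaling genes and 7 lists of their partners, with a point per gene, filled where the adjusted p was under 0.05, and a bar at the list median. All 8 receptor chains and coreceptors lie at 3.01 or above, the 8 proximal signaling genes run from -0.01 to 4.18, and the 4 myeloid ITAM genes are unfilled.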

How the data were processed

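Poly(A) RNA of 16 tumors, each from another mouse, was sequenced from strand-specific libraries. Per the labels and methods, the authors aligned reads with STAR 2.6 to GRCm38 and deposited expected counts per gene from RSEM 1.3.0; whether the counting used strand is not given in the sources used here. The expected counts were rounded to whole numbers. In all, 92 entries that name no gene, with at most 185 counts in a tumor, were left out. Identifiers were matched to symbols and coordinates with GENCODE M21 (53274 of 53465). In chi-square tests of 120 pairs of libraries, every pair had at least 17.8 per degree of freedom, so none looked like a repeat of another.

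Genes were tested in R 4.3.3 with edgeR 4.0.16 (TMM scaling, its filter on low counts, robust quasi-likelihood test) in a single fit of all 16 tumors, with Benjamini-Hochberg adjustment over 18251 genes. A gene passed at an adjusted p under 0.05 and was called when its log2 fold change also exceeded 1 in size. CPM are TMM-scaled, and log2 CPM used a prior count of 2. Single values were compared by two-sided exact permutation tests, and relations over 14 tumors with 100000 permutations, in Python 3.11.15 with scipy 1.17.1. The fit was tested on simulated counts. Where 1 responder was left, its spread was taken from the other groups. Alternatives were DESeq2 1.42.0, other size factors, filters, prior counts and denominators, only the groups compared, and leaving out tumors.

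The 8 genes and all lists were chosen with earlier results of these data known. Named are the 8 genes, the 2 highest and 2 lowest log2 fold changes of each partner list (all genes counted where 5 or fewer), the 3 nearest genes of each of the 8 by Spearman rho, and marker genes. A few genes that this rule names are not reported here.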

Additional observations from a re-analysis of the deposited data

Results flagged for a closer look

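In 38 groups of 6 or 8 values, 5 had a tumor whose gap to the next exceeded Dixon's 95% critical value, and chance flags about 1 in 20 groups. IgG control tumor 1 stood apart for Syk, at 40.9 CPM against 28.1 CPM in the next tumor, and this tumor also had the largest mitochondrial share, 7.60%. IgG control tumor 6 stood apart for Prkcq, at 3.01 CPM, and for Prkcq relative to the Cd3 chains, at a log2 ratio of 1.60. IgG control tumor 8 was low for Syk relative to the Cd3 chains, at a log2 ratio of 3.25. Non-responder tumor 14, which had 5.73% mitochondrial counts, was low for Zap70 minus Syk, at -4.96 log2 units. The part of the mitochondrial share in these values was not tested.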

How the results depend on the processing

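The number of the 8 genes called was 5 or 6 of 8 for responders over non-responders under all alternatives that keep the fold threshold (7 without it), 6 over IgG controls (7 without it), and 0 for non-responders over IgG controls. Lcp2 is the gene whose call changed. Prkcq took the place of Lat as the gene with the highest log2 fold change without responder 15 or non-responder 12 (over non-responders) and without IgG control 6 (over IgG controls). Of the refitted log2 fold changes of the 8 genes, 377 kept direction and their side of the adjusted p threshold, 7 of which were values of Lcp2 over non-responders under the fold threshold of 1 (0.89 to 0.99), 2 no longer passed (Fyn without responder 15), and 21, all of Plcg1 or Fyn near 0, changed sign.

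Plcg1 over non-responders was 0.011 with at least 10 counts in at least 8 tumors and 0.065 without the 3 tumors of high mitochondrial share, and ranged from -0.16 to 0.043 when single tumors were left out. Over IgG controls it was 0.020 with that filter and 0.016 with only the groups compared, and ranged from -0.16 to 0.066. In non-responders over IgG controls Plcg1 was -0.091 without the 3 tumors and ranged from -0.045 to 0.063, and Fyn from -0.045 to 0.059. Zap70 per Cd3 chain in non-responders over IgG controls was 0.10 with Cd2, Cd5 and Cd6 as the denominator, and ranged from -0.15 to 0.040. Single tumors left out gave 0 to 1 partner pairs that passed.

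Within IgG controls 0 relations with marker scores passed and within non-responders 0, with fewer tumors in each, against 3 over the 14 tumors. Relations that changed sign within IgG controls were, for B cell markers, Zap70 (-0.37), Lck (-0.19) and Lcp2 (-0.036), and, for macrophage markers, Lat (-0.38), Lck (-0.33) and Fyn (-0.18). Within non-responders they were Zap70 (-0.17) and Fyn (-0.33) with B cell markers and Zap70 with macrophage markers (0.58). Without IgG control tumor 1, Lcp2 with B cell markers was -1.6e-04 and Zap70 with macrophage markers 0.13. None of these passed, and the cause was not tested.

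Over all genes, 2286 were called higher in responders over non-responders, 1515 with the stricter filter and 895 without responder 15, and over IgG controls 2613 and, without responder 15, 1201. In non-responders over IgG controls 0 were called, 4 by DESeq2, 2 without IgG control 1, when 17.8% of genes were under an unadjusted p of 0.05 instead of 3.8%, and 1 without the 3 tumors. No paired analysis was possible because the groups share no replicate numbers. With 2 responders, exact tests cannot go below 0.0357 or 0.0222. Low counts of Lat, Zap70 and Prkcq, down to 16 in a tumor, limit the precision of their levels outside the responders.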
